A study of Mus musculus with 16 samples.

Results

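The genes described here encode 10 proteins of branched-chain amino acid breakdown: Bcat2, Bckdha, Bckdhb, Dbt, Bckdk, Ppm1k, Ivd, Mccc1, Mccc2 and Hibch. They were taken by gene symbol from a deposited count matrix of 17737 genes. All 10 were present and all 10 were among the 13381 genes with enough counts to be tested. The study concerned diet in relation to ageing and fibrosis of the heart, and measured RNA in the ventricles of 16 male C57BL/6 mice. The mice started at 6 weeks of age and ate 1 of 4 diets for 6 months, with 4 mice on each diet and 1 library per mouse. By its title, the mNIA group ate the NIA primate formula altered to the sucrose and fat content of the UW formula. The groups titled UW and NIA would have eaten the primate formulas of those names, and the Chow group ate a standard rodent chow. The RNA, taken from the lower ventricle, was sequenced from poly-A selected, strand-specific libraries. Groups here follow the sample titles, whereas the library codes (UC for mNIA, NC for UW, MNC for NIA and CC for Chow) do not spell the same diets. Every comparison of a single formula group, with another formula or with chow, therefore rests on the titles, and the mean of the 3 formulas against chow does not depend on which formula group is which.

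Leucine, isoleucine and valine are broken down in the mitochondrial matrix, first by a transaminase that turns them into keto acids and then by a dehydrogenase complex that commits the keto acids to oxidation. Phosphorylation by a dedicated kinase switches the complex off, and a dedicated phosphatase switches it on again. Separate enzymes then carry each amino acid to acetyl-CoA, propionyl-CoA or ketone bodies. Heart muscle is a site of strong branched-chain amino acid oxidation, and lower expression of the pathway has been described in failing mouse and human hearts.

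Across the 4 diets these genes kept levels that overlapped between every pair of diets. Single hearts differed from each other by up to 5.13-fold (Hibch, NIA replicate 4 over Chow replicate 3). The range over the 16 libraries had a median of 1.34 on the log2 scale over the 10 genes, against 1.65 over all tested genes. These medians were not matched for level, and the 10 genes lay between the 82nd and 97th percentiles of level. In 5 hearts most of the 10 genes were low together. Among the other 11 hearts Hibch and Mccc2 tended to be high in the same ones, mainly NIA replicates 1 and 4. Pearson's r of this pair was 0.87 there, and 0.54 without those 2 hearts. Bckdha tended to be low where Hibch was high. The promoters of Hibch, Mccc2 and Bckdha are shown because of these patterns, a choice made after the values were seen. Each is the 250 bases before the gene's start in RefSeq on build GRCm38.p6, written 5′ to 3′ on the gene's strand. Capitals mark matches on either strand to the letters searched. The GC box was searched as GGGCGG. For the second motif the letters were those of its name, the CCAAT box. The letters of the E-box were CACGTG.
Hibch: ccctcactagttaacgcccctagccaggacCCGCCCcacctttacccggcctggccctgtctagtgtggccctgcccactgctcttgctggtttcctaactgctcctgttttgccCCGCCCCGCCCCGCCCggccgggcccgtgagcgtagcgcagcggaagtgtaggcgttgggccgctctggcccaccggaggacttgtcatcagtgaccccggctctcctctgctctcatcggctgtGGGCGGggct
Mccc2: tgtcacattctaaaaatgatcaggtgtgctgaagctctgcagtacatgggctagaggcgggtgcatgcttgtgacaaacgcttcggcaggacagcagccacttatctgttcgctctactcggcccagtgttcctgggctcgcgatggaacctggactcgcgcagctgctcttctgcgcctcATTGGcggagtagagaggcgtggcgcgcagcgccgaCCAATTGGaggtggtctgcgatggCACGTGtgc
Bckdha: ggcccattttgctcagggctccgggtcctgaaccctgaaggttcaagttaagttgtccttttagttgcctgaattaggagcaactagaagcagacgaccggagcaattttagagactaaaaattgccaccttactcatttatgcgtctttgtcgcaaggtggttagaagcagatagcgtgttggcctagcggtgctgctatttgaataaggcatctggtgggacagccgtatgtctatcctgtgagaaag
The Hibch stretch lies at chr1:52844788-52845037 on the plus strand, the Mccc2 stretch at chr13:100015640-100015889 on the minus strand and the Bckdha stretch at chr7:25658762-25659011 on the minus strand. Hibch held 5 GC box matches and no CCAAT box, Mccc2 held 3 CCAAT boxes, of which a pair overlaps, and 1 E-box, and Bckdha held none of these. Of 32851 promoters of the same length in the table, 32.7% held a GC box, 33.8% a CCAAT box and 6.02% an E-box. Promoters were matched for 9 of the 10 genes and Dbt is named only. The match gave 11 promoters, as Bcat2 and Bckdhb each had a second one. The percentages are per promoter, whereas the counts that follow are per gene. The CCAAT box occurred in 6 genes (Bckdhb, Bckdk, Ppm1k, Ivd, Mccc1 and Mccc2), the GC box in 4 (Bckdhb, Ppm1k, Mccc1 and Hibch) and the E-box in Mccc2. The glucocorticoid element (ACANNNTGT), found in 5.84% of all promoters, occurred in Ivd and in the second promoter of Bckdhb. That second promoter lies within the gene, at chr9:83948531-83948780, and the one before the start of Bckdhb held no match. Neither the site of the estrogen-related receptors (TCAAGGTCA, 0.387% of promoters) nor the PPAR element (a direct repeat, 0.0335%) matched in any of the 9. A match describes these letters and is not evidence of binding.

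Library sums ran from 3870480 to 6544172 counts in mNIA, from 4880235 to 6583532 in UW, from 2278250 to 63005490 in NIA and from 4263827 to 5953964 in Chow. In 4 libraries (mNIA replicate 2, NIA replicates 1 and 4, and Chow replicate 3) limma-voom gave a quality weight under 0.5. All 8 cardiomyocyte markers were abundant in every library, with Myh6 at no less than 5356 CPM. Of the atrial markers Myl7 did not exceed 1.42 CPM, while the whole list, mostly Nppa, summed to 65.4 to 226 CPM over the libraries. Of the fat cell markers Adipoq did not exceed 0.669 CPM and Plin1 0.393 CPM, while the list, almost all of it Fabp4, summed to 595 to 2141 CPM. Of the skeletal muscle markers Myh1 did not exceed 0.594 CPM and Pvalb 1.37 CPM, while the list, mostly Ckm, summed to 1554 to 2794 CPM. In whole tissue, fewer cells of a type and less RNA per cell cannot be told apart.

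Per kilobase of transcript, the dehydrogenase subunit Bckdha and the leucine enzyme Ivd stood at the top of the group. Averaged over the 16 libraries, Bckdha was at 125 CPM (scaled counts relative to library size) per kb, Ivd at 93.6, Hibch at 50.8, Bcat2 at 49.2 and Bckdhb at 44.5. Mccc1 was at 37.9 CPM per kb, Mccc2 at 36.0, Bckdk at 26.7, Ppm1k at 24.4 and Dbt at 22.4. The ranges over libraries overlapped for every pair of neighbours in this order. Within a library, Bckdha was above Ivd in 15 of 16, Ivd above Hibch in 16 of 16 and Mccc2 above Bckdk in 16 of 16, whereas Hibch was above Bcat2 in only 7 of 16. The place of Bckdk depends on its transcript: with a length of 1702 bases in place of 3405, an alternative added after seeing the data, its chow mean was 50.2 in place of 25.1 CPM per kb. By mean log2 CPM the 10 genes lay between the 82nd and 97th percentiles of the tested genes.

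**Figure D1:**
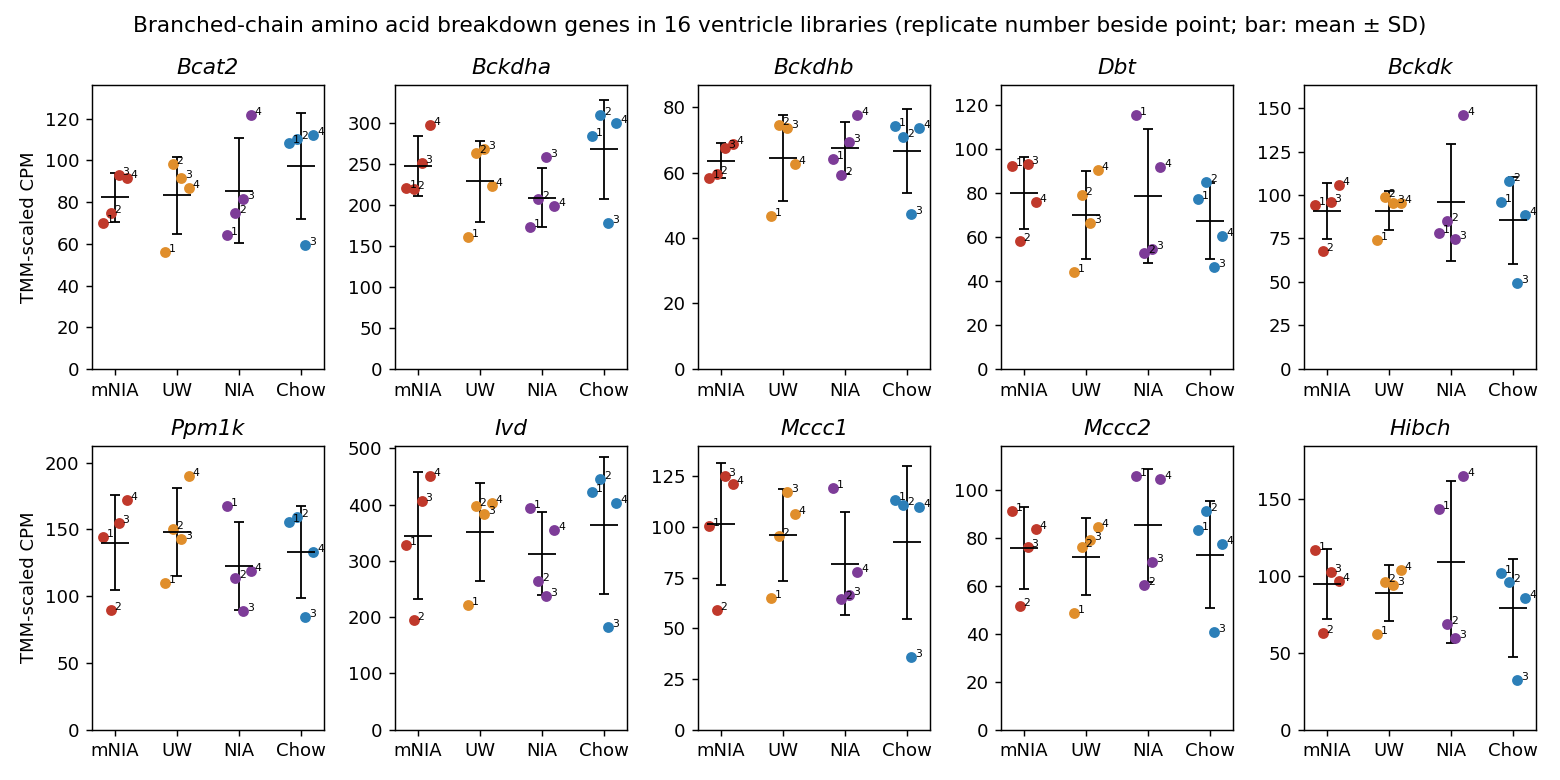
Level of each of the 10 genes in TMM-scaled CPM (vertical axis, from 0) by diet, with 1 point per library, its replicate number beside it, and the mean and SD as a bar with whiskers. The 4 diets overlap for every gene, and Chow replicate 3 or UW replicate 1 is the lowest point in each panel.

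Bcat2 (chr7:45570153-45589711 on mm10, plus strand), the mitochondrial transaminase of the first step, had 70.0, 74.8, 93.0 and 91.7 CPM in mNIA, 56.3, 98.2, 91.7 and 87.0 in UW, 64.2, 74.7, 81.7 and 122 in NIA, and 109, 110.1, 59.5 and 112 in Chow, in replicate order 1 to 4. Of the chow hearts 3 lay close together near the top of the range and replicate 3 lay near the bottom, so that the formula libraries overlapped with chow. The log2 fold change of the formula mean over chow was -0.22 (95% confidence interval -0.64 to 0.20, edgeR adjusted p = 0.938). Set against the 3 chow libraries other than replicate 3, 11 of the 12 formula libraries were lower. The same count was 11 for Bckdha, 9 for Bckdhb and Ivd, and 4 to 8 for the remaining members. Replicate 3 was left out here after its values were seen, and such counts were not made for all tested genes. Without Chow replicate 3 the log2 fold change of Bcat2 was -0.40, with an edgeR adjusted p that still missed the threshold (0.9999).

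Bckdha (chr7:25629852-25658762, minus strand), which encodes the alpha subunit of the decarboxylase of the complex, had 220.1, 219.9, 252 and 298 CPM in mNIA, 161, 263, 268 and 223 in UW, 173, 207, 258 and 198 in NIA, and 284, 309, 178 and 300.0 in Chow. As for Bcat2, chow replicates 1, 2 and 4 were high and replicate 3 was low. The log2 fold change of the formula mean over chow was -0.23 (95% confidence interval -0.63 to 0.17, edgeR adjusted p = 0.938), and that of NIA over chow was -0.36 (SE 0.238, adjusted p = 0.697). Bckdha had the highest share of variance between diets of the 10 genes, 19.9%, against a median of 19.2% over all tested genes. Means of 4 libraries differ without any effect of diet, so the share does not measure such an effect. The edgeR joint test for any diet difference gave Bckdha an adjusted p of 0.948. The log2 fold change of the formula mean over chow was -0.39 without Chow replicate 3.

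Bckdhb (chr9:83925137-84124241, plus strand), the beta subunit of the same decarboxylase, was the steadiest of the 10 genes. It had 58.4, 59.7, 67.6 and 68.8 CPM in mNIA, 46.6, 74.6, 73.8 and 62.8 in UW, 64.2, 59.1, 69.4 and 77.5 in NIA, and 74.2, 71.0, 47.5 and 73.7 in Chow. Its highest library exceeded its lowest by 1.66-fold, and the low points were UW replicate 1 and Chow replicate 3. The formula mean differed from chow by -0.03 on the log2 scale (95% confidence interval -0.36 to 0.30), and by -0.16 without Chow replicate 3.

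Dbt (chr3:116513070-116549982, plus strand), the transacylase core of the complex, had 92.3, 58.3, 93.4 and 76.1 CPM in mNIA, 44.1, 79.0, 66.2 and 90.5 in UW, 115, 52.7, 54.4 and 91.7 in NIA, and 77.3, 85.1, 46.5 and 60.5 in Chow. Each diet held both high and low hearts. The formula mean differed from chow by 0.17 on the log2 scale (95% confidence interval -0.32 to 0.66), and by 0.03 without Chow replicate 3.

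The kinase Bckdk (chr7:127904073-127909665, plus strand), which inactivates the complex, had 94.3, 67.8, 95.7 and 106 CPM in mNIA, 74.4, 99.0, 95.4 and 95.3 in UW, 78.0, 84.8, 74.6 and 146 in NIA, and 95.8, 108, 49.7 and 88.4 in Chow. NIA replicate 4 stood above all other libraries and Chow replicate 3 below them. Ppm1k (chr6:57506502-57535488, minus strand), the phosphatase that reactivates the complex, had 144, 89.7, 155 and 172 CPM in mNIA, 109.6, 150.1, 143 and 189.8 in UW, 168, 114, 88.9 and 119 in NIA, and 155, 159, 84.4 and 133 in Chow. Its highest library was UW replicate 4, and all 4 diets overlapped. The formula mean differed from chow by 0.11 (95% confidence interval -0.33 to 0.55) for Bckdk and by 0.04 (-0.42 to 0.49) for Ppm1k, both on the log2 scale. Both differences turned negative without Chow replicate 3, to -0.08 for Bckdk and -0.13 for Ppm1k.

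In the leucine arm, Ivd (chr2:118861994-118882910, plus strand), the isovaleryl-CoA dehydrogenase, had 327, 194, 406 and 451 CPM in mNIA, 221, 398, 383 and 403 in UW, 393, 264, 238 and 356 in NIA, and 422, 445, 182 and 402 in Chow. In mNIA, UW and Chow 1 heart lay far below the other 3, and in NIA replicates 2 and 3 were the lower ones. Mccc1 (chr3:35959306-36000679, minus strand), the biotin-carrying subunit of methylcrotonyl-CoA carboxylase, had 100.5, 59.0, 125 and 121 CPM in mNIA, 64.7, 95.3, 117 and 107 in UW, 119, 64.5, 66.4 and 77.5 in NIA, and 113, 111, 35.9 and 109.8 in Chow. Chow replicate 3 was again the lowest, with the mean of the other chow libraries 3.10-fold higher. Mccc2 (chr13:99948532-100015640, minus strand), the partner subunit of that carboxylase, had 91.1, 51.7, 76.0 and 83.8 CPM in mNIA, 48.6, 76.0, 79.2 and 84.5 in UW, 106, 60.5, 69.8 and 105 in NIA, and 83.1, 91.0, 40.6 and 77.2 in Chow. NIA replicates 1 and 4 were the highest of the 16. On the log2 scale the formula mean differed from chow by -0.11 for Ivd (95% confidence interval -0.66 to 0.43), by 0.00 for Mccc1 (-0.56 to 0.57) and by 0.08 for Mccc2 (-0.39 to 0.55). These differences were, without Chow replicate 3, -0.33 for Ivd, -0.27 for Mccc1 and -0.12 for Mccc2. The antisense transcript Mccc1os overlaps Mccc1 and held 2.75% to 25.1% as many counts as Mccc1. Whether the counting used strand is not given in the sources used here, so reads of this pair may not be told apart.

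Hibch (chr1:52845038-52920987, plus strand), which hydrolyses 3-hydroxyisobutyryl-CoA in valine breakdown, was the most variable of the 10 genes. It had 117, 63.1, 103 and 96.4 CPM in mNIA, 62.6, 96.2, 93.8 and 104 in UW, 143, 68.5, 59.6 and 165 in NIA, and 102, 96.0, 32.2 and 85.8 in Chow. The NIA hearts alone reached from near the bottom of the range to its top, with replicates 1 and 4 high and replicates 2 and 3 low. The log2 fold change of the formula mean over chow was 0.30 (95% confidence interval -0.32 to 0.91, edgeR adjusted p = 0.938), and that of NIA over chow was 0.45 (SE 0.356, adjusted p = 0.759). The formula mean differed from chow by 0.04 on the log2 scale without Chow replicate 3.

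In none of the 8 comparisons did any of the 10 genes pass edgeR's quasi-likelihood test at an adjusted p of 0.05, and 0 had an unadjusted p under 0.05 in any of them. DESeq2 and limma-voom with sample quality weights also called 0 members. DESeq2 gave 7 of the 10 no adjusted p in mNIA minus NIA, so these could not be called there. Their unadjusted DESeq2 p values in that comparison were 0.449 to 0.949. Over all tested genes limma-voom called 14.8% in mNIA minus NIA, 6.85% in UW minus NIA, 0.209% in NIA minus Chow and 14.8% in the joint test. DESeq2 called 2.44% in UW minus NIA, 0.852% in NIA minus Chow and 1.3% in the joint test, and in the remaining comparisons neither tool called more than 0.0299%. For the mean of the 3 formulas minus chow, the adjusted p values of the members ran from 0.938 to 0.999. The background called there was 0% of tested genes after adjustment and 2.19% without it. For mNIA minus Chow the background was 0.00747% (1 gene) after adjustment and 1.38% without it. For UW minus Chow it was 0% and 2.35%, and for NIA minus Chow 0% and 8.70%. Among the formulas, mNIA minus NIA had a background of 0% and 8.91%, mNIA minus UW 0% and 0.986%, and UW minus NIA 0% and 13.9%. The joint test for any diet difference called 0% of tested genes, with 6.88% at an unadjusted p under 0.05, and adjusted p values of 0.948 to 0.993 for the members.

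No gene of the 10 had diets that did not overlap. Over all tested genes such separation was found in 2.16% for mNIA and Chow, 4.45% for UW and Chow, 3.23% for NIA and Chow, and 0.0897% for the formulas together and Chow. It was found in 2.35% for mNIA and NIA, 1.43% for mNIA and UW, and 6.35% for UW and NIA. The median log2 fold change of the 10 genes was 0.06 in mNIA over Chow against 0.01 for all tested genes, 0.02 in UW over Chow against -0.01, and -0.05 in NIA over Chow against -0.01. Between 4 and 6 of the 10 members had the higher fitted level in the first-named diet of each of the 7 directed comparisons by edgeR. This balance did not hold under other fits. With limma-voom and its quality weights 0 of 10 members were above chow for the formula mean and for NIA, and 10 of 10 were higher in mNIA than in NIA and in UW than in NIA. Of the 10, 5 had an unadjusted p under 0.05 in NIA minus Chow by limma-voom, where 24.3% of all tested genes did, 4 in mNIA minus NIA (35.8%), 2 in UW minus NIA (31.7%) and 2 in the formula mean minus Chow (9.54%). It was 1 in mNIA minus Chow (12%), 1 in UW minus Chow (11.2%) and 0 in mNIA minus UW (4.24%). Without Chow replicate 3, edgeR put 8 of 10 below chow for the formula mean. The share of all tested genes on each side was not counted under these fits. Over the 16 libraries all 45 pairs of members had a positive Pearson's r of log2 CPM, with a median of 0.73. A count of 10 of 10 is therefore not 10 separate results. The share of a gene's variance that lay between diets had a median of 6.78% over the 10 genes, with Ivd lowest at 2.27%, against medians of 11.7% over 16 citric acid cycle genes and 19.2% over all tested genes. Such shares are above 0 even without an effect of diet. Intervals stayed wide: over the 10 genes, the 95% confidence intervals of the formula mean over chow reached from -0.66 to 0.91 on the log2 scale.

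**Figure D2:**
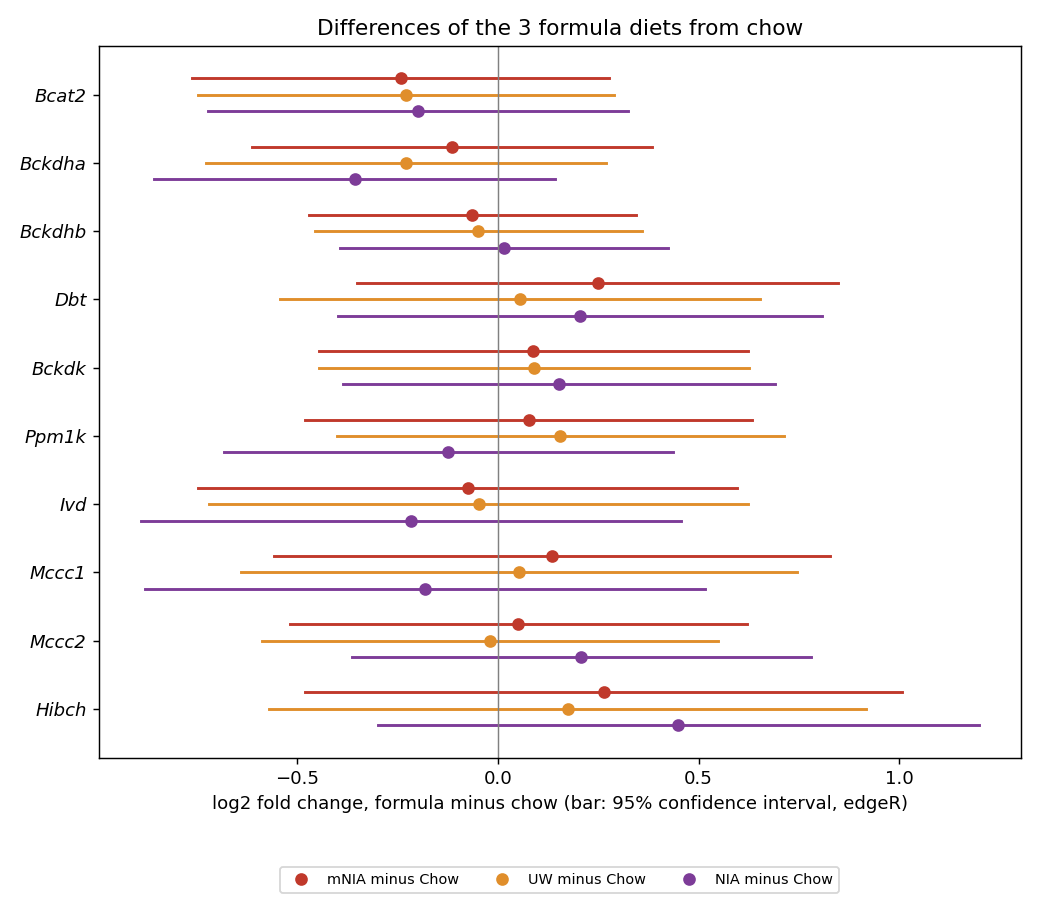
Log2 fold change (horizontal axis) of mNIA, UW and NIA over Chow for each of the 10 genes, with points for the estimates and bars for 95% confidence intervals from edgeR. Every interval includes 0, and the estimates lie between -0.36 (Bckdha, NIA) and 0.45 (Hibch, NIA).

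The picture changed when the 4 libraries of low quality weight were left out, a choice known from earlier work on these data, which left 3 mNIA, 4 UW, 2 NIA and 3 Chow libraries. Then 5 members were higher in mNIA than in NIA by edgeR's test, among 23.1% of all tested genes called there. Mccc1 led with a log2 fold change of 0.82 (adjusted p = 0.00624), followed by Hibch at 0.71 (0.011), Dbt at 0.70 (0.0293), Ivd at 0.65 (0.0397) and Ppm1k at 0.62 (0.0263). In UW minus NIA Mccc1 was called at 0.57 (adjusted p = 0.046, background 11.8%), and in NIA minus Chow it was called at -0.79 (adjusted p = 0.0439, background 1.63%). Mccc1 was also called in the joint test (adjusted p = 0.0319, background 9.97%). In mNIA minus Chow, UW minus Chow, the formula mean minus Chow and mNIA minus UW 0 members were called, with backgrounds of 0%, 0.00726%, 0% and 0%. The NIA arm of these calls is replicates 2 and 3 alone. The mean level of the 10 genes (log2 CPM minus each gene's mean) differed between libraries kept and left out. It was -0.39 in mNIA replicate 2, left out, and 0.10 to 0.25 in those kept. In NIA it was 0.19 and 0.28 in those left out and -0.26 and -0.25 in those kept. In Chow it was -0.79 in replicate 3, left out, and 0.14 to 0.29 in those kept. The direction of these calls is therefore not independent of which libraries were removed. In NIA replicate 2 all 10 genes lay below their own medians over the 16 libraries, and in replicate 3 it was 8 of 10. The summed endothelial markers were 999.8 to 1127 CPM in the 3 mNIA libraries kept, against 1286 and 1434 CPM in these NIA libraries. Summed erythrocyte markers were 1538 to 2354 CPM in the same mNIA libraries, against 7270 and 3501 CPM in the NIA ones. The summed fat cell list, almost all of it Fabp4, was 595 to 847 CPM, against 1244 and 1501 CPM. The part of these marker lists in the calls was not tested. Bcat2 had a log2 fold change of -0.44 for the formula mean over chow in this subset (unadjusted p = 0.0039, adjusted p = 0.961).

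The largest gap between hearts in the mean level of the 10 genes set 5 low libraries apart from the other 11. The mean level of the 10 genes, as log2 CPM after subtraction of each gene's mean, was -0.39 in mNIA replicate 2, -0.49 in UW replicate 1, -0.26 in NIA replicate 2, -0.25 in NIA replicate 3 and -0.79 in Chow replicate 3. The other 11 libraries lay between 0.10 and 0.29, and at least 1 library of each diet was in the low set. All 10 genes were below their own median in mNIA replicate 2, UW replicate 1, NIA replicate 2 and Chow replicate 3, and 8 of 10 in NIA replicate 3. Chow replicate 3 held the lowest value of 6 genes and UW replicate 1 that of the other 4. At the other end, NIA replicate 4 held the highest value of 4 genes and NIA replicate 1 that of 2.

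**Figure D3:**
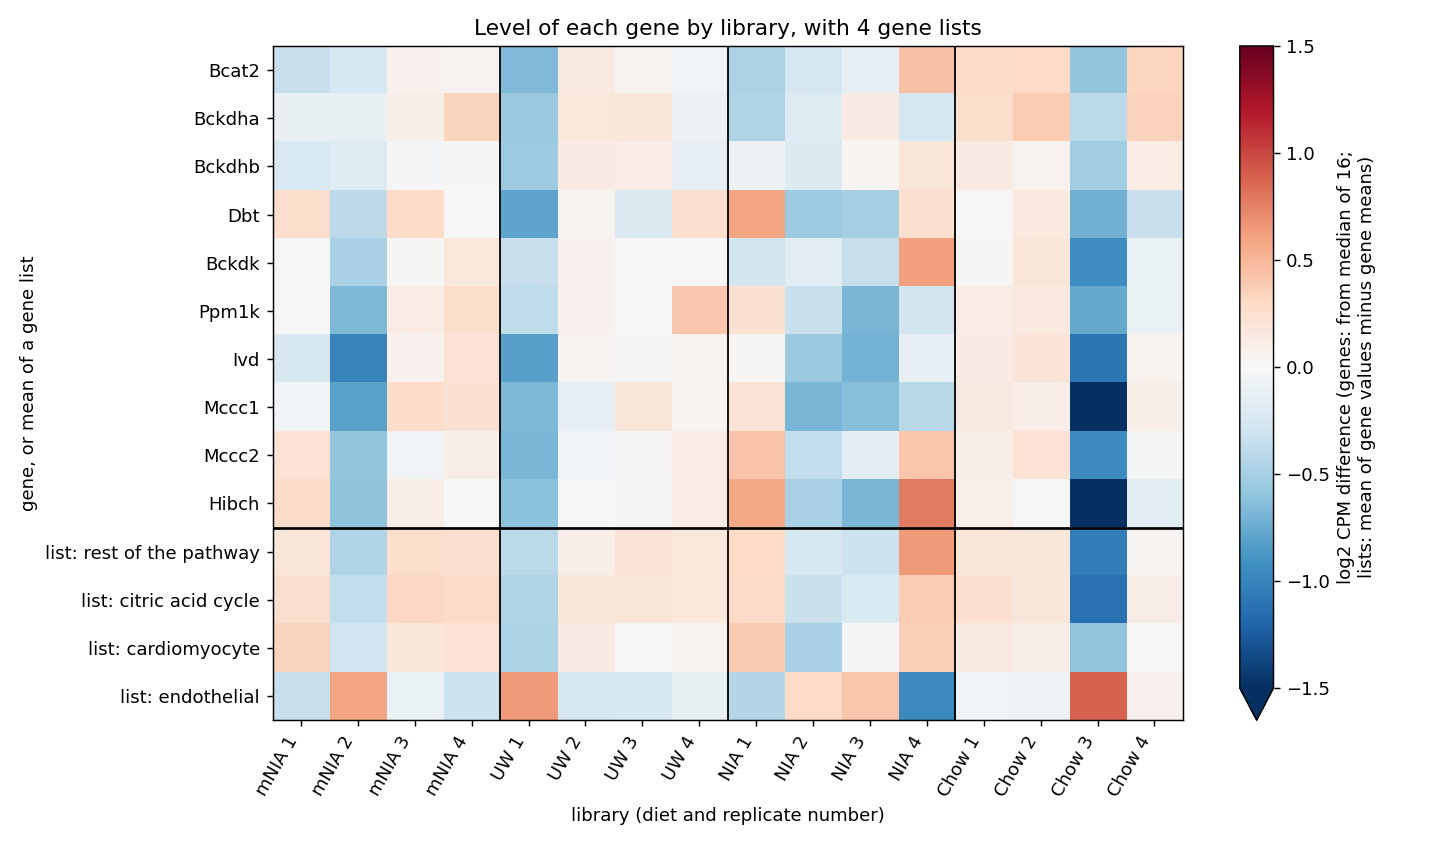
Log2 CPM of each of the 10 genes in each library relative to the gene's median over the 16 libraries, with the mean level of 4 gene lists in the bottom rows, where red is higher and blue is lower. Columns are libraries grouped by diet, values under -1.5 take the darkest blue, and mNIA replicate 2, UW replicate 1, NIA replicate 2 and Chow replicate 3 are blue for all 10 genes.

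Other gene groups moved with them. The mean level of the 16 citric acid cycle genes, which act in the same mitochondrial matrix, was between -1.12 and -0.23 in the 5 low libraries and between 0.10 and 0.38 in the other 11. The 8 cardiomyocyte markers were between -0.59 and -0.01 in the 5, and between -0.01 and 0.39 in the 11. The 8 endothelial markers went the other way, between 0.30 and 0.88 in the 5 and between -0.96 and 0.06 in the 11. Erythrocyte markers were between 0.25 and 1.37 in the 5 and between -1.22 and 0.66 in the 11. Of the fat cell list only Fabp4 was tested. Its level, which does not stand for fat cells, was between 0.19 and 0.82 in the 5 and between -0.74 and 1.11 in the 11. Macrophage markers were between 0.02 and 0.96 in the 5 and between -0.75 and 0.47 in the 11. Of the skeletal muscle list only Acta1, Ckm and Myot were tested. Their mean level, which does not stand for skeletal muscle, was between -0.65 and -0.07 in the 5 and between -0.15 and 0.54 in the 11. Fibroblast markers were between -0.01 and 0.68 in the 5 and between -0.61 and 0.19 in the 11, and pericyte and smooth muscle markers between -0.32 and 0.34 and between -0.67 and 0.24. The tested atrial markers, Myl4 and Nppa, were between -0.39 and 0.65 in the 5 and between -0.89 and 0.53 in the 11. Summed endothelial markers were 999.8 to 1662 CPM in mNIA, 1037 to 1862 in UW, 559.7 to 1434 in NIA and 1145 to 1934 in Chow. Summed cardiomyocyte markers were 59131 to 96688 CPM in mNIA, 50259 to 76703 in UW, 46860.0 to 105694 in NIA and 51180 to 77976 in Chow. The part of any of these marker lists in the levels of the 10 genes was not tested. Within the 11 libraries, Pearson's r of the mean level of the 10 genes was 0.44 with the citric acid cycle list, 0.16 with the cardiomyocyte list and -0.27 with the endothelial list. These are descriptions over points that share their normalization.

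**Figure D4:**
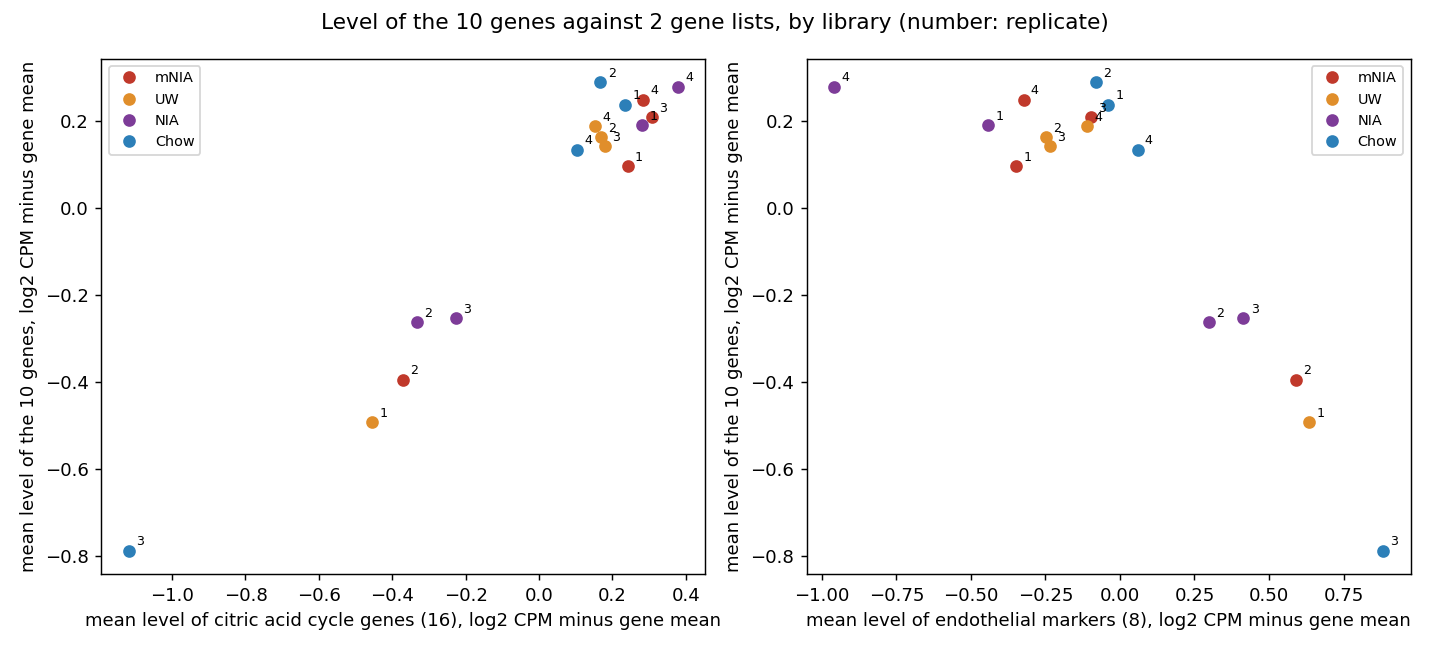
Mean level of the 10 genes (vertical axis) against the mean level of 16 citric acid cycle genes (left) and of 8 endothelial markers (right), all as log2 CPM minus each gene's mean, with 1 point per library coloured by diet. The 5 low libraries lie apart from the other 11 in both panels, with low citric acid cycle levels and high endothelial levels.

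Among the 11 libraries that were not low, some pairs of genes went together and others went opposite ways. Of 45 pairs of members only 20 had a positive Pearson's r of log2 CPM there, with a median of -0.12. Taking libraries by the mean of the same 10 genes narrows their range and lowers such values. The count and the median therefore cannot be read as a split of the genes into sets. The pairs below were picked with their values known, and pairs of other genes were not counted. Mccc2 with Hibch gave the highest of the 45 values and Bckdha with Hibch the lowest. Mccc2 and Hibch, whose promoters are printed above, had r = 0.87 (Spearman's rho 0.67, n = 11). Without NIA replicates 1 and 4, the libraries with most of both, r was 0.54 (rho 0.42, n = 9). These 2 libraries had the smallest count sums of the 16 and quality weights under 0.5. Bcat2 and Bckdhb had r = 0.83 (rho 0.78) and 0.85 without the same 2 libraries. Bckdha and Hibch had r = -0.87 (rho -0.87) and -0.77 without them. Bckdha had r = -0.78 (and -0.61 without them) with its partner in the complex Dbt, and 0.41 (and 0.77) with its other partner Bckdhb. Ivd and Mccc1 of the leucine arm had r = 0.56, which was 0.48 without NIA replicates 1 and 4 and 0.17 without mNIA replicate 1 and NIA replicate 4, the libraries farthest from the median of Ivd. The opposed regulators Bckdk and Ppm1k had r = -0.49, which was 0.49 without NIA replicates 1 and 4. The points share diets and normalization, and these values are descriptions.

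**Figure D5:**
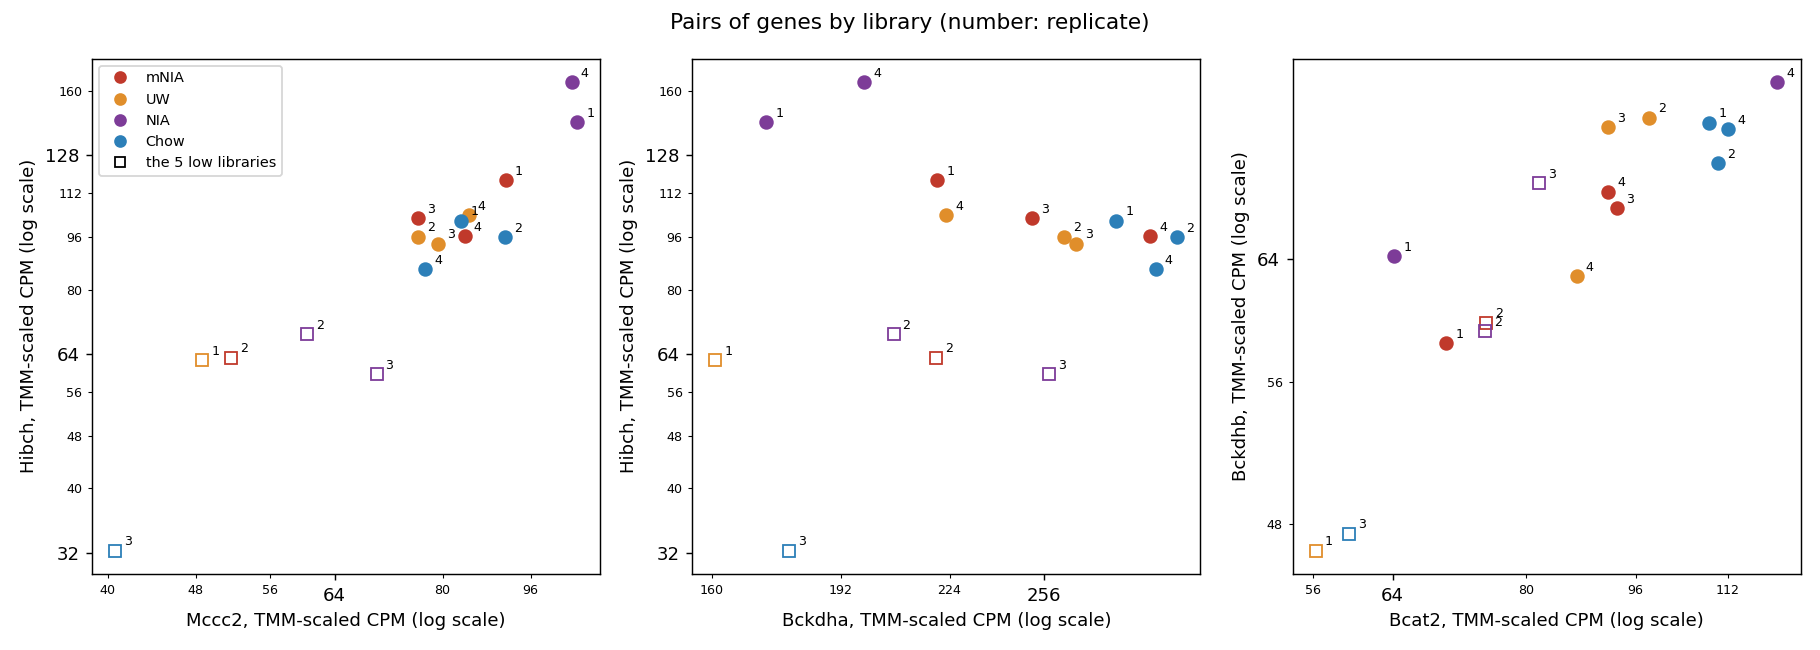
Level in TMM-scaled CPM on log axes of Hibch against Mccc2 (left), Hibch against Bckdha (middle) and Bckdhb against Bcat2 (right), with 1 point per library coloured by diet and open squares for the 5 libraries with low levels of the 10 genes. Among the filled points Hibch tends to be higher where Mccc2 is higher and lower where Bckdha is higher, with NIA replicates 1 and 4 highest in Hibch.

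Balances within the pathway were read as log2 ratios of CPM between genes in the same library, for 4 ratios and 24 pairs of diets, without a test. The ratio of Bckdha to Bckdhb was 1.91, 1.88, 1.89 and 2.11 in mNIA, 1.78, 1.82, 1.86 and 1.82 in UW, 1.43, 1.80, 1.89 and 1.35 in NIA, and 1.93, 2.12, 1.90 and 2.02 in Chow. Here UW and NIA each lay below Chow without overlap, and mNIA lay above UW. Of the ratios of all other tested genes to Bckdhb, 3.85% did not overlap between UW and Chow, 1.67% between NIA and Chow and 0.65% between mNIA and UW. Chow replicate 3, low in both genes, kept a ratio like that of the other chow hearts. The ratio of kinase to phosphatase, Bckdk to Ppm1k, ran from -0.71 to -0.40 in mNIA, from -0.99 to -0.56 in UW, from -1.10 to 0.30 in NIA and from -0.76 to -0.56 in Chow, so all diets overlapped. The ratio of Mccc1 to Mccc2 was 0.33 to 0.56 in UW and -0.43 to 0.17 in NIA, which did not overlap, as 6.54% of the ratios of all other genes to Mccc2 did not. In all, 4 of the 24 pairs of diets did not overlap, and the ratios were chosen with levels of these genes known. Across all genes, level relative to the other libraries had a Spearman's rho with transcript length of -0.50 in NIA replicate 4 and 0.11 in NIA replicate 1, the libraries with the lowest ratios of Bckdha to Bckdhb, and of 0.47 in UW replicate 4. The transcript of Bckdha has 1899 bases and that of Bckdhb 1472. The part of length in the ratios was not tested.

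The rest of the pathway gave no call either. Of 16 further enzymes and carriers 15 were tested, the exception being the cytosolic transaminase Bcat1, which did not exceed 3.93 CPM in any library. By edgeR 0 of the 15 were called in any of the 7 directed comparisons. Their fitted level was above chow for 13 of 15 in mNIA, 10 of 15 in UW, 12 of 15 in NIA and 14 of 15 for the formula mean, where the median log2 fold change was 0.18 against 0.00 for all tested genes. For the 16 citric acid cycle genes the same count was 15 in mNIA, 12 in UW, 10 in NIA and 14 for the formula mean. These comparisons share the 4 chow libraries, including replicate 3. Dld, the dihydrolipoyl dehydrogenase that the complex shares with other complexes, averaged 574 ± 192 CPM in mNIA, 508 ± 107 in UW, 552 ± 289 in NIA and 397 ± 193 in Chow (SD, n = 4 each). Its log2 fold change for the formula mean over chow was 0.45 (SE 0.364, edgeR adjusted p = 0.938). Pcca, a subunit of the propionyl-CoA carboxylase reached from valine and isoleucine, averaged 84.5 ± 29.3 CPM in mNIA, 89.5 ± 23.5 in UW, 75.5 ± 21.6 in NIA and 81.6 ± 36.7 in Chow (SD, n = 4 each). Slc25a44, the mitochondrial carrier of branched-chain amino acids, averaged 21.5 ± 5.69 CPM in mNIA, 23.3 ± 3.42 in UW, 19.6 ± 2.35 in NIA and 20.9 ± 5.22 in Chow (SD, n = 4 each). For both genes the formula mean differed from chow by 0.02 on the log2 scale, and all diets overlapped. Klf15, a transcription factor that controls the pathway in mouse muscle and heart, averaged 39.9 ± 18.8 CPM in mNIA, 50.7 ± 19.8 in UW, 39.6 ± 8.30 in NIA and 36.5 ± 10.6 in Chow (SD, n = 4 each). Of the 5 uptake and regulator genes, Klf15 included, 0 were called in any comparison.

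Some pathway and uptake genes had an unadjusted p under 0.05 by edgeR in comparisons that involve NIA, and are named after their values were seen. Of the 15 pathway genes it was 2 in NIA minus Chow, where 8.70% of all tested genes did so, 1 in mNIA minus NIA (8.91%) and 2 in UW minus NIA (13.9%). For the 5 uptake and regulator genes it was 1 in NIA minus Chow, 1 in mNIA minus NIA and 2 in UW minus NIA. Mcee, the methylmalonyl-CoA epimerase, averaged 145 ± 103 CPM in NIA, against 78.8 ± 6.55 in Chow (SD, n = 4 each), and its log2 fold change was 0.86 (edgeR adjusted p = 0.470). Hsd17b10, the dehydrogenase of isoleucine breakdown, averaged 175 ± 106 CPM in NIA, against 105 ± 14.2 in Chow (SD, n = 4 each), and its log2 fold change was 0.72 (adjusted p = 0.493). The highest NIA library was at 299 CPM for Mcee and 332 CPM for Hsd17b10. The amino acid transporter gene Slc7a5 was low, at 5.75 ± 1.31 CPM in UW and 2.76 ± 0.873 in NIA (SD, n = 4 each). Its log2 fold change was 0.89 in UW over NIA (edgeR adjusted p = 0.236). Slc3a2, whose product pairs with that of Slc7a5, had a log2 fold change of -0.41 in UW over NIA (adjusted p = 0.325), -0.44 in mNIA over NIA (0.549) and 0.44 in NIA over Chow (0.493).

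By a fixed rule, the tested genes outside these lists whose log2 CPM went most closely with the mean level of the 10 genes over the 16 libraries were Mipep (Pearson's r 0.97), Tmem143 (0.96), Mto1 (0.96), Slc35f5 (0.96) and Cpe (0.96). Mipep is a mitochondrial intermediate peptidase and Mto1 modifies mitochondrial transfer RNA. For the kinase Bckdk they were Tmem38a (0.96), Prdx3 (0.95) and Mat2b (0.95), and for the phosphatase Ppm1k they were Wfs1 (0.97), Psme4 (0.97) and Nfe2l1 (0.96). The 16 points include the 5 low libraries, which lie apart from the rest.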

How the data were processed

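RNA sequencing values of 16 mouse ventricle libraries were used, 4 for each of 4 diets, with 1 mouse per library. The authors deposited expected counts per gene, unscaled, and per the submitters' processing notes BWA, DESeq2 and build mm10 were used. Versions, the counting tool and its strand setting are not given in the sources used here. The values were rounded to whole counts. Groups follow the sample titles, and no batch is labelled. The 10 genes and the lists beside them were chosen with earlier results of these data known.

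All genes were tested with edgeR 4.0.16 (R 4.3.3): filterByExpr by diet kept 13381 genes, libraries were scaled by TMM, and a robust quasi-likelihood model with 1 mean per diet gave 2-sided p-values. These were adjusted by Benjamini-Hochberg over all tested genes, with a threshold of 0.05. Contrasts covered each of the 6 pairs of diets, the formula mean minus chow and a joint test. The common dispersion had a square root of 0.28. CPM values are TMM-scaled, and log2 CPM used a prior count of 2. A gene or list was described whether or not it passed. The pathway rule named genes with an unadjusted p under 0.05 in the formula mean minus chow (there were 0) plus Dld, Klf15, Slc25a44 and Pcca, and the likeness rule took the highest Pearson correlation (5 genes for the mean of the members, 3 each for Bckdk and Ppm1k).

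Alternatives were RLE size factors, no filter, over 1 CPM in at least 4 libraries, DESeq2 1.42.0, limma-voom with sample quality weights (limma 3.58.1), a replicate block, fits of 2 diets alone, removal of each library and removal of 4 libraries together. The scripts were tested on simulated data. Depth ran from 2278250 counts in NIA replicate 4 to 63005490 in NIA replicate 2. Transcript lengths came from GENCODE mouse release 21, promoter sequences from RefSeq (GRCm38.p6), and gene positions from the deposited file on mm10.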

Additional observations from a re-analysis of the deposited data

Results flagged for a closer look

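Of 40 sets of 4 values (10 genes in 4 diets), 7 held an outlying library by Dixon's criterion. Its gap to the nearest neighbour was large for the range of the set. Chance meets the criterion in about 1 in 20 independent sets. The 40 sets share the same 16 libraries and the genes go together over them, so the 7 flagged sets cannot be read against that rate. Of these, 4 were Chow replicate 3, below the other chow hearts: Bcat2 at 59.5 CPM, Bckdhb at 47.5 CPM, Ivd at 182 CPM and Mccc1 at 35.9 CPM. UW replicate 1 lay below the other UW hearts for Bckdk at 74.4 CPM and for Ivd at 221 CPM. NIA replicate 4 lay above the other NIA hearts for Bckdk at 146 CPM. In Chow replicate 3 and UW replicate 1 the endothelial markers were also at their highest, with mean levels of 0.88 and 0.64 on the log2 scale, and in NIA replicate 4 at their lowest, -0.96. The part of these differences in the 7 values was not tested.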

How the results depend on the processing

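Under every setting but one, edgeR, DESeq2 and limma-voom called 0 of the 10 genes in each comparison, against up to 14.8% of all tested genes under limma-voom (mNIA minus NIA) and 2.44% under DESeq2 (UW minus NIA). DESeq2 gave 7 of the 10 no adjusted p in mNIA minus NIA, where its unadjusted p for them was 0.449 to 0.949. The exception was removal of the 4 libraries of low quality weight, which gave 1 call in NIA minus Chow, 5 in mNIA minus NIA, 1 in UW minus NIA and 1 in the joint test. Removing 1 library at a time gave 0 to 0 calls in each of the 8 comparisons (lowest adjusted p 0.422). The lowest adjusted p of limma-voom was 0.0519, for Mccc1 in mNIA minus NIA, and that of DESeq2 was 0.470. With the replicate number as a block 0 genes were called (lowest adjusted p 0.707). Over 24 pairs of libraries with the same title number, deviations correlated between -0.58 and 0.61 with a median of -0.08, against 0.05 for other pairs. Of 16 libraries 4 went best with their own number. The numbers in the library codes, which differ from the titles for mNIA, were not tried, so a pairing of the hearts is not settled.

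Of 230 log2 fold changes of the formula mean over chow under other settings, 200 kept their direction, 30 did not and 0 passed the threshold. Under limma-voom they were -0.043 for Dbt, -0.085 for Bckdk, -0.11 for Ppm1k, -0.22 for Mccc1, -0.14 for Mccc2 and -0.055 for Hibch. Without the 4 libraries they were -0.13 for Dbt, -0.14 for Bckdk, -0.18 for Ppm1k, -0.33 for Mccc1, -0.22 for Mccc2 and -0.18 for Hibch, and without a filter -0.0037 for Mccc1. Removal of single libraries gave -0.16 to 0.023 for Bckdhb, -0.078 to 0.24 for Bckdk, -0.13 to 0.13 for Ppm1k, -0.33 to 0.0011 for Ivd, -0.27 to 0.11 for Mccc1 and -0.12 to 0.20 for Mccc2. Without Chow replicate 3 the sign turned for Bckdk, Ppm1k, Mccc1 and Mccc2. Bcat2 (-0.40 to -0.15), Bckdha (-0.39 to -0.16), Dbt (0.03 to 0.30) and Hibch (0.04 to 0.44) kept their sign when single libraries were removed. The cause of these changes was not tested.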
